A study of Mus musculus with 8 samples.

Results

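The genes described here carry a cell from G1 into S phase and copy its DNA. There are 45 of them, chosen by name: the 6 subunits of the MCM2-7 helicase, the licensing and firing factors that load and start it, cyclin E, Cdk2 and the E2F activators, the enzymes of nucleotide supply, the replicative polymerases with primase, the sliding clamp with its loader and RPA, the enzymes that join Okazaki fragments, and factors of chromatin assembly. A gene was followed through every non-control probe that carries its name in the scanner files. By this rule 44 of the 45 genes had a probe, 67 probes in all, among 27745 gene names and 41174 probes. The symbols are those of the array design, so that Cdc45l, Orc1l and Orc6l stand for genes now called Cdc45, Orc1 and Orc6. Gins2 had no probe under its name.

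Hematopoietic stem cells (HSCs) from the bone marrow of mice (strain B6) gave the total RNA, which was hybridised to Agilent arrays of 1 colour, with 1 sample per array. The 2 control samples carried wild-type Nras (Nras+/+), 3 samples carried 1 mutant allele (NrasG12D/+) and 3 carried the mutation on both alleles (NrasG12D/G12D). Nras is a small GTPase that relays growth factor signals, and its G12D form, expressed here from the endogenous gene, is held in the active state. The comparisons ask how HSCs with no, 1 or 2 mutant alleles differ. Age, the recombinase that switched on the allele, the gates used to collect the cells and any pooling of animals are details not given in the sources used here. Nothing in the labels says that the samples came from separate animals, so each p-value reflects the spread among these samples alone, which may be technical.

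In G1, the origin recognition complex, Cdc6 and Cdt1 load the MCM2-7 ring onto DNA, a step called licensing that geminin blocks later in the cycle. Cyclin E with Cdk2, and Cdc7, then convert the loaded ring into an active helicase together with Cdc45 and GINS, and the E2F factors switch on many of these genes once the retinoblastoma protein is phosphorylated. Adult HSCs are mostly quiescent, and cells outside the cycle keep low levels of much of this machinery. In bulk RNA, fewer cycling cells and less RNA per cell cannot be told apart.

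The letters of E2F sites stand near the start of many of these genes, before or after it. Some stretches are shown because the E2F factors are themselves among the genes described. RefSeq promoter windows (build GRCm38.p6, 250 bases before to 50 after the start) were matched for 37 of the 45 genes. In these windows the letters TTTGGCGC, TTTCCCGC, TTTCGCGC and TTTGCCGC were searched on both strands, where matches can overlap. At least 1 of the 4 spellings stood in the windows of 15 of the 37 genes, or 40.5%, against 2.61% of all 27025 genes with a window. The share was 40% among the 20 matched genes that were measured well enough to be tested, and 41.2% among the other 17. The CCAAT box (CCAAT, either strand) stood in 62.2% of the 37 genes and in 41.1% of all genes. In the stretches below, 5′ to 3′ on the gene's own strand and all upstream of the start, capitals mark the E2F letters on either strand.
Mcm5: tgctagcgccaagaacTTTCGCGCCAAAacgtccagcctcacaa
Mcm6: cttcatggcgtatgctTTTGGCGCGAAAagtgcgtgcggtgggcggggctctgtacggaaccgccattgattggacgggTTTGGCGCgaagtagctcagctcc
Mcm7: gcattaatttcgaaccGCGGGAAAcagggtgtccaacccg
Uhrf1: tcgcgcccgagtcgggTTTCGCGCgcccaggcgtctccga
Cdc6: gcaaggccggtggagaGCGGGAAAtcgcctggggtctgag
Orc1l: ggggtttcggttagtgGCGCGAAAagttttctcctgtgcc
The Mcm5 stretch is chr8:75109340-75109383 on the plus strand, and its 12 capitals hold 2 overlapping spellings, 1 on each strand. The Mcm6 stretch is chr1:128359729-128359831 on the minus strand and holds 3 matches. Mcm7 lies at chr5:138172025-138172064 (minus), Uhrf1 at chr17:56304112-56304151 (plus), Cdc6 at chr11:98907997-98908036 (plus) and Orc1l at chr4:108579411-108579450 (plus). A match is a description of letters and not a measured binding site. Mcm5, Mcm6, Mcm7 and Uhrf1 were measured on most arrays, while Cdc6 and Orc1l were above background on none.

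The arrays differed in brightness. Each carried 43379 non-control spots, and the median processed signal ran from 3.09 to 6.75, highest on NrasG12D/+ replicates 1 and 2. The correlation of 2 arrays across genes ranged from 0.52 to 0.687. Both Nras+/+ arrays shared slide 1 with NrasG12D/+ replicates 1 and 2, and NrasG12D/+ replicate 3 shared slide 2 with the 3 NrasG12D/G12D arrays, so no slide holds both wild-type and homozygous samples. The labelled cell type was checked on HSC markers: Ly6a and Slamf1 were well above background on all 8 arrays, Meis1 on 7, Cd34 on 3, Kit, Hlf and Hoxb5 on 1 each, and Procr on none. Markers of other lineages were also measured on all 8 arrays, among them Mpo, Hba-a1, Hbb-b1, Vpreb1, Igll1, Cd3e, Il7r and Csf1r, while Klf1, Cd79a, Ebf1, Cd3d, Gzma, S100a8 and Camp of the same lists were above background on none and Lyz on 1.

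Many of these genes were not measured well enough to compare, in a share near that of all genes. Of the 44 genes with a probe, 15 were well above background on no array and 6 on 1 array. The other 23, or 52.3%, reached that level on at least 2 arrays and were tested, beside 54.3% of all gene names. Only 6 were above background on all 8 arrays (Rfc5, Lig1, Chaf1b, Mcm4, E2f1 and Tk1), which is 13.6%, against 21.4% of all gene names. Cdc7 also had probes above background on all 8 arrays, but its brightest and therefore tested probe reached that level on 6. That probe was the brightest by mean only through 1 high value, on NrasG12D/G12D replicate 3. The difference between these shares was not tested.

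The undetected genes came from nearly every step. They were Mcm2 of the helicase, Cdc6 and Orc1l of licensing, Cdc45l of firing, Cdk2, E2f2 and E2f3 of the G1/S switch, both ribonucleotide reductase genes Rrm1 and Rrm2, Pola1 and Prim1 of the polymerase alpha-primase complex, the clamp loader subunit Rfc3, the single-strand binding subunit Rpa1, the chromatin assembly subunit Chaf1a, and Slbp, which binds histone mRNA. For these genes the arrays give only an upper limit and no change between genotypes. Cdk2, Cdc6 and Rrm1 had 2 probes each and E2f3 had 4, none of them above background. The genes seen on 1 array were Gmnn, Gins1 and Rfc4 on NrasG12D/+ replicate 1, Pola2 and Pole on NrasG12D/+ replicate 3, and Prim2 on NrasG12D/G12D replicate 3.

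The number of these genes above background overlapped between the genotypes. It was 17 and 14 of 44 on the Nras+/+ arrays, 21, 21 and 16 on the NrasG12D/+ arrays and 20, 12 and 17 on the NrasG12D/G12D arrays, each in the order of the replicate numbers. In percent of the 44, this is 38.6 and 31.8, then 47.7, 47.7 and 36.4, then 45.5, 27.3 and 38.6. Over all gene names the share was 45.3% and 39.5%, then 50.2%, 51.8% and 36.8%, then 38.9%, 33.8% and 38.3%. The share of replication genes was highest on the brightest arrays, NrasG12D/+ replicates 1 and 2, and lay below that of all gene names on 6 arrays and above it on NrasG12D/G12D replicates 1 and 3. Of 10 markers of the later cell cycle, between 4 and 6 were above background on each array, with Aurka, Plk1 and Birc5 on all 8, Mki67 on 5, and Ccnb1, Cdc2a, Aurkb and Bub1 on none.

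**Figure D1:**
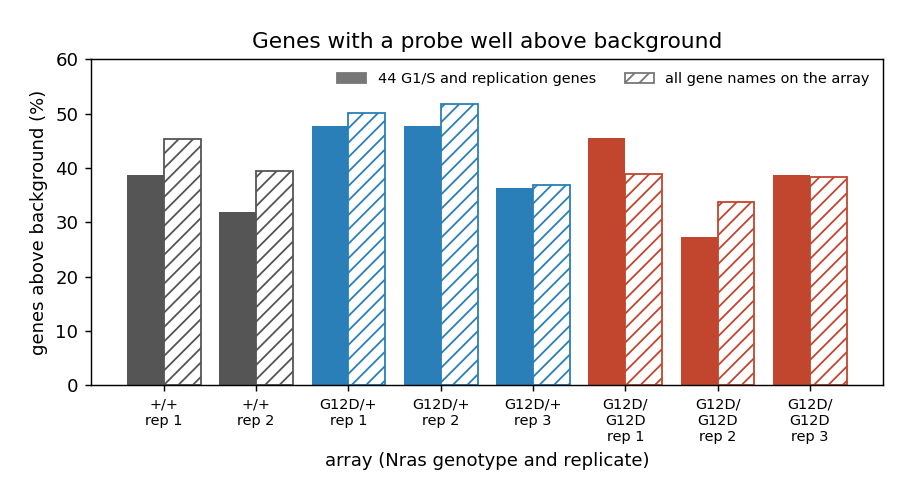
Percent of genes with a probe well above background on each of the 8 arrays, for the 44 G1/S and replication genes (filled bars) and for all 27745 gene names (hatched bars). The replication genes lie between 27.3% and 47.7%, and the 3 NrasG12D/G12D arrays alone span 27.3% to 45.5%.

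Levels are given below as the log2 processed signal relative to the array's own 75th percentile, so that 0 is a bright probe and most tested replication genes lie below 0. Changes are differences of such levels between genotype means, from limma fitted to all 15061 genes tested, with Benjamini-Hochberg adjustment over all of them. No gene of the whole array passed an adjusted p under 0.05 in any of the 3 comparisons (0% of 15061), and none of the 23 replication genes did. At an unadjusted p under 0.05, 718, 980 and 895 genes of the whole array passed, in the order in which the comparisons follow. With the scaling used, the median gene changed by -0.26 in heterozygous against wild-type samples, by -0.44 in homozygous against wild-type samples and by -0.20 in homozygous against heterozygous samples, and other scalings moved these medians to as much as 0.02, 0.19 and 0.25. Values are therefore also set against the median of all genes.

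In NrasG12D/+ against Nras+/+, the replication genes split evenly. Of 23 tested, the mean was higher for 12 and lower for 11, against 41.9% of all genes higher, and 13 lay above the median of all genes. Their median change was 0.19, which is 0.44 above the median of all genes. At an unadjusted p under 0.05, Lig1 was higher and Pcna lower, where 4.77% of all genes passed, 2.35% higher and 2.42% lower. Pcna passed the filter of 2 arrays only through the Nras+/+ arrays, where it was high, so its p is no support for a change. The samples of both genotypes did not overlap for 5 genes (21.7%): Mcm6, Mcm10 and Lig1 were higher and Pcna and Cdc7 lower. Over all genes this happened for 24.8%, 8.83% higher and 16% lower, so the count for replication genes is near the background.

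In NrasG12D/G12D against Nras+/+, the mean was higher for 10 of the 23 genes and lower for 13, against 35.6% of all genes higher. Their median change was -0.21, which is 0.23 above the median of all genes, and 13 lay above that median. Pcna was lower at an unadjusted p under 0.05, where 6.51% of all genes passed, 5.19% lower and 1.32% higher. Here too its p is no support for a change, as Pcna passed the filter only through the Nras+/+ arrays. The samples did not overlap for 7 genes (30.4%): Lig1 and Chaf1b were higher, and Mcm4, Pcna, Cdt1, Tk1 and E2f1 lower. Over all genes the figure was 27.8%, 5.82% higher and 22% lower, again near the background. Of the 6 genes above background on all 8 arrays, 5 (83.3%) had samples that did not overlap, against 26.2% of the 5930 genes measured that fully. Those 5 went in both directions, and with 6 genes this is given as a description.

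When the mutant genotypes were compared, the mean in NrasG12D/G12D was higher for 11 of the 23 genes and lower for 12, against 42.3% of all genes higher. The median change was -0.13, which is 0.06 above the median of all genes. Mcm10 and Lig1 were lower at an unadjusted p under 0.05, where 5.94% of all genes passed, 4.34% lower and 1.61% higher. Mcm10 passed the filter only through the NrasG12D/+ arrays, where it was high, so its p is no support for a change. The samples did not overlap for Mcm10 and Tk1 (8.70%), both lower in NrasG12D/G12D, against 11.2% of all genes, 8.55% lower and 2.66% higher. The 3 comparisons share samples, so their values are not independent of each other.

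The split of calls over all genes depended on the scaling. For NrasG12D/+ against Nras+/+, the unadjusted calls were 354 higher and 364 lower, and 523 and 266 with arrays scaled to the median. For NrasG12D/G12D against Nras+/+ they were 199 higher and 781 lower, and 573 and 300 with the authors' deposited table of values. For NrasG12D/G12D against NrasG12D/+ they were 242 and 653, and 661 and 299 with that table. The direction of a small change such as that of Tk1 therefore rests on the scaling.

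**Figure D2:**
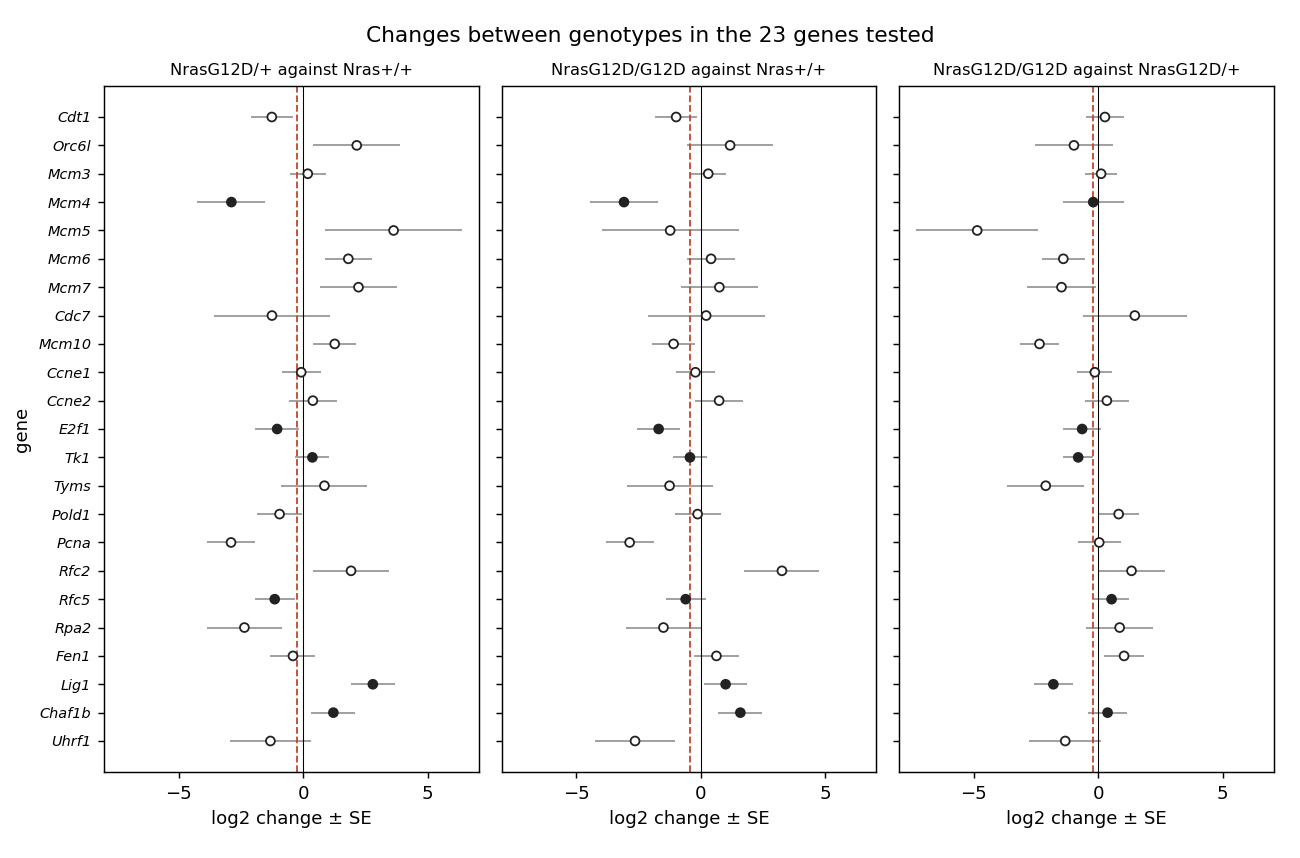
Log2 change with its standard error for each of the 23 tested genes in the 3 comparisons, ordered by role. Filled points are genes above background on all 8 arrays, the solid line is no change and the dashed line is the median of all genes at -0.26, -0.44 and -0.20. Changes lie on both sides of the dashed line in every comparison, and the widest bars belong to Mcm5 and Cdc7.

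Among the licensing factors, the origin recognition subunit gene Orc6l and the MCM loader Cdt1 were tested. Cdt1 had levels of -3.25 and -2.02 in Nras+/+, -4.54, -4.58 and -2.55 in NrasG12D/+ and -3.44, -3.75 and -3.66 in NrasG12D/G12D. The homozygous samples all lay below the wild-type ones, while NrasG12D/+ replicate 3 lay among them. For NrasG12D/G12D the change was -0.98 with a standard error of 0.853 (adjusted p 0.769, n = 3 against 2). Orc6l was above background on NrasG12D/+ replicate 2, at -0.07, and on NrasG12D/G12D replicate 3, at -3.66, and on no other array. Its remaining levels were -6.5 and -5.82 in Nras+/+, -6.25 and -5.69 in NrasG12D/+ and -6.58 and -4.68 in NrasG12D/G12D. The change of Orc6l for NrasG12D/G12D against Nras+/+ was 1.18 with a standard error of 1.74 (adjusted p 0.856). It turned to -0.21 with the normexp background correction, which models background in place of subtracting it and adds an offset of 50. An offset of that size alone shrinks the log2 changes of dim probes, so the effect of the background model cannot be told apart.

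The MCM genes encode the subunits of the helicase ring, and Mcm5 had the largest standard error of the 23 genes. Mcm5 had levels of -3.57 and -3.49 in Nras+/+, 6.96, -4.19 and -2.46 in NrasG12D/+ and -6.21, -4.62 and -3.43 in NrasG12D/G12D. The values on NrasG12D/G12D replicates 1 and 2 were not above background. A single array, NrasG12D/+ replicate 1, stood 9.42 log2 units above the next. The change for NrasG12D/+ against Nras+/+ was 3.64 with a standard error of 2.75 (adjusted p 0.814), and 0.21 without that array. In homozygous against heterozygous samples it was -4.86 with a standard error of 2.46 (adjusted p 0.803), the lowest of the 23 genes, and -1.43 without that array.

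Mcm7 peaked on the same array. Its levels were -3.05 and -5.90 in Nras+/+, 1.07, -4.08 and -3.74 in NrasG12D/+ and -3.51, -3.50 and -4.16 in NrasG12D/G12D. Those on Nras+/+ replicate 2, NrasG12D/+ replicate 3 and NrasG12D/G12D replicate 3 were not above background. The change for NrasG12D/+ against Nras+/+ was 2.22 with a standard error of 1.54 (adjusted p 0.814), and 0.56 without NrasG12D/+ replicate 1. On this array the summed level of 6 myeloid markers was also far above that of the other arrays, at 236 times the 75th percentile against 0.455 to 10.7, with 4 of the 6 markers above background there against 1 to 3 elsewhere, and with S100a8 and Camp above background on none. The sum is of linear signals, so a few bright markers can carry it. Among the NrasG12D/+ arrays, Mpo and S100a9 had log2 standard deviations of 4.82 and 5.94, against 3.02 for Ctsg and 0.725 for Ltf. The part of these markers in the values of Mcm5 and Mcm7 was not tested.

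Among the 5 MCM2-7 genes tested, only Mcm4 was above background on all 8 arrays. Its levels were 3.87 and -0.56 in Nras+/+, -2.53, -1.73 and 0.58 in NrasG12D/+ and -2.06, -1.19 and -1.02 in NrasG12D/G12D. The homozygous samples lay below both wild-type samples, and NrasG12D/+ replicate 3 lay between them. The changes were -2.88 and -3.08 against Nras+/+, each with a standard error of 1.37 (adjusted p 0.814 and 0.726). Without Nras+/+ replicate 1, which stood 3.30 above every other array, they were -0.66 and -0.86. A further Mcm4 probe, above background on 2 NrasG12D/+ arrays and no others, gave only -0.18 and -0.56 with a standard error of 0.864, the latter between groups that were both below background. The mean of both probes gave -1.53 and -1.82. The mutant genotypes differed in Mcm4 by -0.20 with a standard error of 1.22 (adjusted p 0.986), and the sign turned with the 75th percentile over all probes (0.13) and with the authors' deposited values (0.25).

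Mcm6 was above background on 7 arrays. Its levels were -3.54 and -3.92 in Nras+/+, -2.89, -0.09 and -2.75 in NrasG12D/+ and -3.78, -3.28 and -2.88 in NrasG12D/G12D. All 3 heterozygous samples lay above the wild-type ones, by most on replicate 2. The change was 1.82 with a standard error of 0.955 (adjusted p 0.814), and 0.91 without NrasG12D/+ replicate 2. Mcm3 was above background on 2 arrays and its levels, between -5.19 and -3.74, changed by 0.31 or less in any comparison.

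**Figure D3:**
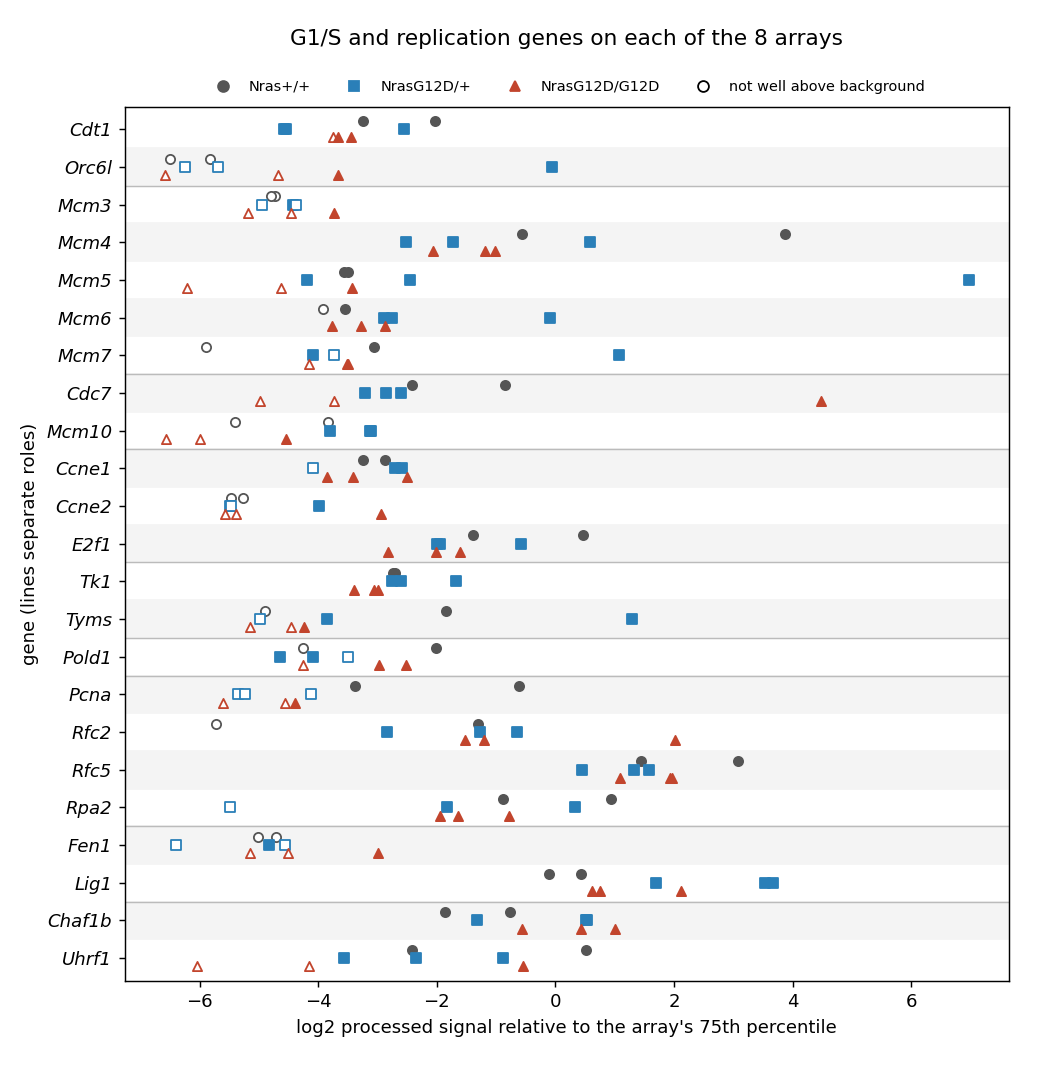
Log2 processed signal relative to the array's 75th percentile for the tested probe of each of the 23 genes, 1 symbol per array, with grey circles for Nras+/+, blue squares for NrasG12D/+ and red triangles for NrasG12D/G12D; open symbols are not well above background. Mcm5 on NrasG12D/+ replicate 1 lies at 6.96 and Cdc7 on NrasG12D/G12D replicate 3 at 4.48, each far from the other arrays, while Lig1 lies higher on all 3 NrasG12D/+ arrays than on the Nras+/+ arrays.

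Of the firing factors, Mcm10, which helps Cdc45 and the MCM ring to unwind DNA, was detected unevenly between genotypes, as was Pcna below. It was above background on all 3 NrasG12D/+ arrays, on no Nras+/+ array and on 1 NrasG12D/G12D array. It thus passed the filter of 2 arrays only through the NrasG12D/+ arrays, where it was high. Its levels were -5.40 and -3.83 in Nras+/+, -3.11, -3.80 and -3.12 in NrasG12D/+ and -4.55, -6.00 and -6.56 in NrasG12D/G12D. The heterozygous samples lay above all others, on NrasG12D/+ replicate 2 by a narrow margin. On that bright array the signal was 19.4 and above background. On the dimmer Nras+/+ replicate 2, at nearly the same level, it was 8.07 and was not. The share of all genes with such a split is not given here. Nras+/+ levels under the array's detection limit were first raised to that limit. As a ratio of means, and not a lower bound, Mcm10 was then 1.69-fold higher in NrasG12D/+. Its limma change was 1.27 with a standard error of 0.864 (adjusted p 0.814), and 0.49 without Nras+/+ replicate 1, and it turned to -0.08 with the normexp correction. NrasG12D/G12D against NrasG12D/+ gave -2.36 with a standard error of 0.773, unadjusted p 0.0141 and adjusted p 0.803, and within slide 2 alone it was -2.58. With the normexp correction it was -0.18, where every Mcm10 signal lay below the offset of 50.

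Cdc7, the kinase that phosphorylates the loaded MCM ring, had 3 probes, and they disagreed in NrasG12D/G12D. The tested probe had levels of -0.85 and -2.43 in Nras+/+, -2.60, -3.21 and -2.86 in NrasG12D/+ and -4.98, -3.74 and 4.48 in NrasG12D/G12D. It was the brightest of the 3 by mean, and so tested, only through that last value. Its change between the mutant genotypes was 1.47 with a standard error of 2.10 (adjusted p 0.918), and -1.47 without NrasG12D/G12D replicate 3. The other 2 probes were above background on all 8 arrays and did not rise on that array, with levels there of -2.99 and -2.83. They gave changes of -1.33 (standard error 0.73) and -0.73 (standard error 0.81) for NrasG12D/G12D against Nras+/+, where the tested probe gave 0.22. On the first of them all mutant samples, at -3.66 to -2.21, lay below both wild-type samples, at -1.85 and -1.40. On the other the samples overlapped. For NrasG12D/+ against Nras+/+ the 3 probes were closer, at -1.25, -1.25 and -1.28. Cdc45l and Gins1, which act with the ring in the active helicase, were not tested. A probe named 4833427B12Rik matches Gins2 by its accession and falls outside the rule. It was above background on 7 arrays, at -0.06 and -2.65 in Nras+/+, -5.05, -0.62 and -2.69 in NrasG12D/+ and -4.23, -0.35 and -2.88 in NrasG12D/G12D, with genotypes that overlapped.

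**Figure D4:**
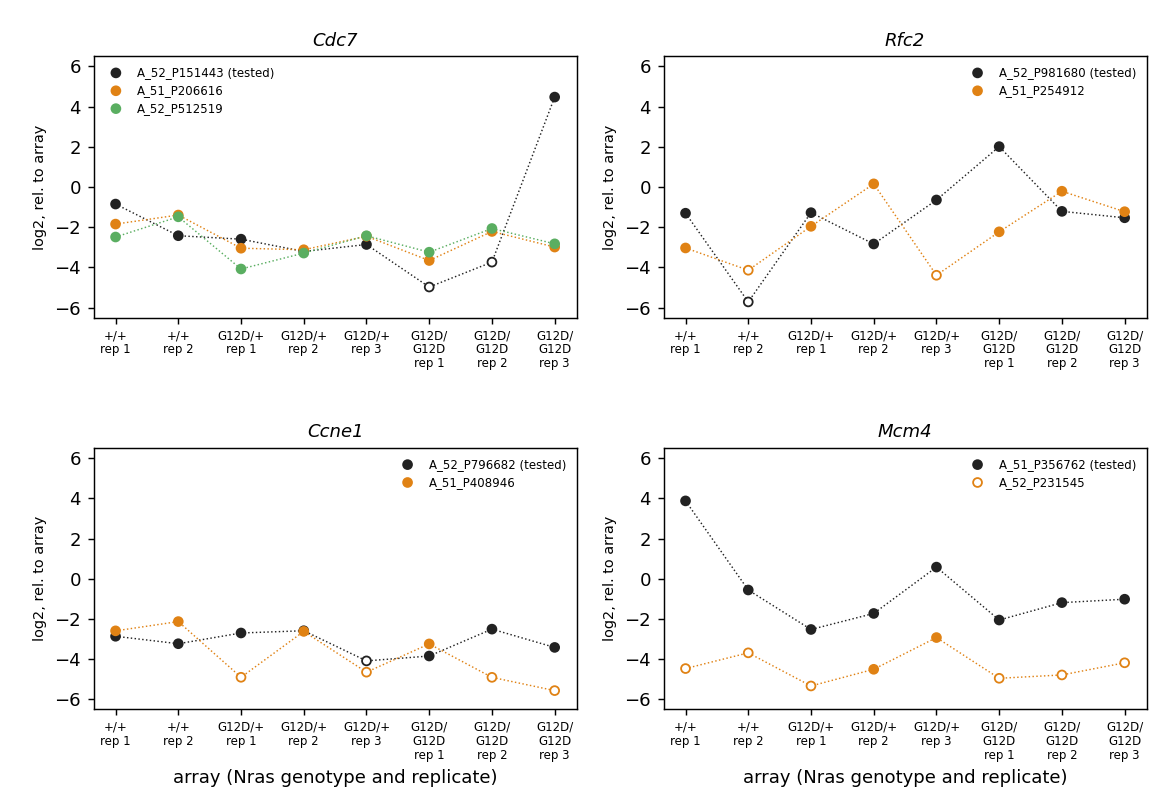
Levels on each array of the probes above background on at least 2 arrays, for 4 genes that have more than 1 such probe, as log2 processed signal relative to the array's 75th percentile; open symbols are not well above background and dotted lines join the values of 1 probe. The tested Cdc7 probe departs from the other 2 on NrasG12D/G12D replicate 3, and the probes of Rfc2 peak on different arrays.

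At the G1/S switch, the tested probe of E2f1, the activator that drives replication genes, was above background on all 8 arrays. A second E2f1 probe was above background on none. The tested probe had levels of -1.39 and 0.47 in Nras+/+, -1.95, -2.0 and -0.58 in NrasG12D/+ and -2.83, -1.61 and -2.01 in NrasG12D/G12D. The homozygous samples lay below both wild-type samples, and the heterozygous ones overlapped with both groups. The change was -1.69 for NrasG12D/G12D against Nras+/+ (standard error 0.87, adjusted p 0.726) and -0.76 without Nras+/+ replicate 2. The tested E2f1 probe is printed at 10 spots on each array, of which 7 to 10 were usable and all were above background. Their log2 standard deviation within an array was 0.135 to 0.21, below the difference between the wild-type arrays.

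The probes of cyclin E1 (Ccne1), which activates Cdk2, disagreed. The tested Ccne1 probe, above background on 7 arrays, changed by -0.08 and -0.21 against Nras+/+ (standard error 0.79 each). A further Ccne1 probe was above background on both Nras+/+ arrays, 1 NrasG12D/+ array and 1 NrasG12D/G12D array, and changed by -1.70 and -2.21 with a standard error of 0.99. Its levels were -2.60 and -2.13 in Nras+/+, -4.91, -2.62 and -4.65 in NrasG12D/+ and -3.25, -4.91 and -5.57 in NrasG12D/G12D. All 6 mutant samples lay below both wild-type samples on this probe, NrasG12D/+ replicate 2 by a narrow margin, and the samples overlapped on the tested probe. Ccne2 was seen on 2 arrays and changed by 0.39 and 0.74. Cdk2, E2f2 and E2f3, whose windows hold the E2F letters, were above background on no array.

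In nucleotide supply, thymidine kinase (Tk1) was measured on all arrays with little spread. Its levels were -2.70 and -2.73 in Nras+/+, -2.61, -1.67 and -2.76 in NrasG12D/+ and -3.39, -2.99 and -3.06 in NrasG12D/G12D. The homozygous samples lay lowest, but the change against Nras+/+, -0.43 with a standard error of 0.687 (adjusted p 0.872), turned to 0.06 with the 75th percentile over all probes, 0.20 with the authors' deposited values and 0.19 with the slide as a block. Between the mutant genotypes it was -0.80 with a standard error of 0.615 (adjusted p 0.846). Thymidylate synthase (Tyms) reached 1.30 on NrasG12D/+ replicate 2 and lay between -5.15 and -1.84 elsewhere. Its change between the mutant genotypes was -2.10 with a standard error of 1.54 (adjusted p 0.841), -0.20 without that array and 0.36 within slide 2. The further Tyms probes were above background on 0 and 1 array.

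Of the polymerase and primase genes only Pold1, the catalytic subunit of polymerase delta, was tested. It was above background on 5 arrays, with changes of -0.95, -0.12 and 0.83 and standard errors of 0.824 to 0.921. A second Pold1 probe was above background on 1 array.

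Pcna, the sliding clamp that holds the polymerases on DNA, had the lowest change of the 23 genes in NrasG12D/+ against Nras+/+, closely followed by Mcm4. It was measured by 1 probe of 60 bases, shown here because the result rests on it alone and because it is printed at 10 spots.
Pcna probe: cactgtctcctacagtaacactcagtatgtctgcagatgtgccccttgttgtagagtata
The files place it at chr2:131941125-131941262, a span of 138 bases that is longer than the probe, and name no genome build. The probe counts as above background on an array where at least 50% of its spots are. It was above background on both Nras+/+ arrays, no NrasG12D/+ array and 1 NrasG12D/G12D array. It thus passed the filter of 2 arrays only through the Nras+/+ arrays, where it was high. Its levels were -3.39 and -0.61 in Nras+/+, -5.35, -5.23 and -4.11 in NrasG12D/+ and -4.39, -5.60 and -4.57 in NrasG12D/G12D.

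Every mutant sample lay below both wild-type samples for Pcna. It was 6.45-fold lower in NrasG12D/+ as a ratio of means, with those arrays at no less than their detection limit. This ratio is not a lower bound. The limma change was -2.90 with a standard error of 0.963 (unadjusted p 0.0150, adjusted p 0.814), and -3.29 within slide 1. For NrasG12D/G12D it was -2.85 with the same standard error (unadjusted p 0.0162, adjusted p 0.726). Nras+/+ replicate 2 stood 2.77 above the next array, and without it the changes were -1.51 and -1.47. With the normexp correction they were -1.10 and -0.90, where only Nras+/+ replicate 2 had a signal above the offset of 50. Spot by spot, all 10 spots were above background on each Nras+/+ array, 3, 4 and 3 of 10 on the NrasG12D/+ arrays, and 5 of 9, 0 of 10 and 3 of 10 on the NrasG12D/G12D arrays. The mutant genotypes did not differ beyond their spread (change 0.04, standard error 0.861).

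**Figure D5:**
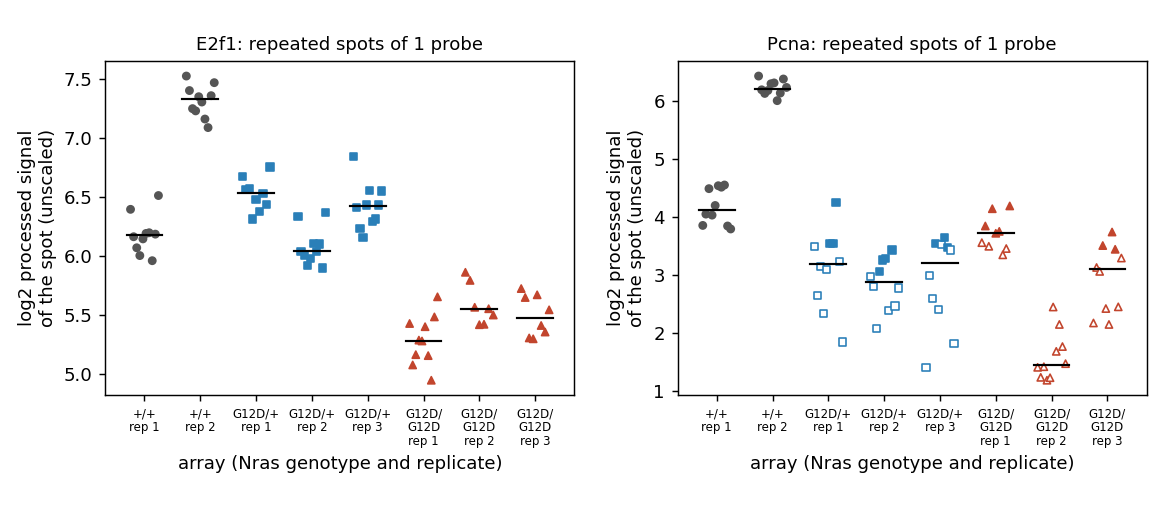
Log2 processed signal, not scaled between arrays, of each usable spot of the E2f1 probe (left) and the Pcna probe (right) on the 8 arrays; bars are medians and open symbols are spots not well above background. The spots of E2f1 lie close together within an array, and Pcna has all 10 spots above background on the Nras+/+ arrays and at most 5 elsewhere.

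The clamp loader and RPA gave mixed values. Rfc5, a loader subunit, had levels of 3.08 and 1.44 in Nras+/+, 0.45, 1.58 and 1.33 in NrasG12D/+ and 1.93, 1.96 and 1.08 in NrasG12D/G12D. These overlapped, and the changes against Nras+/+ were -1.14 and -0.60 with a standard error of 0.798 (adjusted p 0.814 and 0.838), the latter turning to 0.03 with the authors' deposited values. Rfc2, another subunit, was lowest on Nras+/+ replicate 2, where it was not above background. Its levels were -1.31 and -5.72 in Nras+/+, -1.28, -2.84 and -0.65 in NrasG12D/+ and 2.01, -1.21 and -1.53 in NrasG12D/G12D. Its change of 3.27 for NrasG12D/G12D against Nras+/+ (standard error 1.51, adjusted p 0.726) was the highest of the 23 genes. It was 1.06 without Nras+/+ replicate 2 and 1.22 with the normexp correction. A further Rfc2 probe, above background on 6 arrays, gave 2.36 (standard error 1.28), in the same direction. It too was not above background on Nras+/+ replicate 2.

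Rpa2, a subunit of the single-strand binding complex RPA, was low on a single array. Its levels were -0.88 and 0.94 in Nras+/+, -5.48, -1.83 and 0.33 in NrasG12D/+ and -1.65, -1.95 and -0.78 in NrasG12D/G12D. The low value, on NrasG12D/+ replicate 1, was not well above background. The change for NrasG12D/+ against Nras+/+ was -2.36 with a standard error of 1.5 (adjusted p 0.814), and -0.78 without that array. A second Rpa2 probe was above background on no array.

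DNA ligase 1 (Lig1), which seals Okazaki fragments, had the lowest unadjusted p of the 23 genes. It was above background on all 8 arrays, with levels of 0.43 and -0.12 in Nras+/+, 3.66, 3.53 and 1.69 in NrasG12D/+ and 2.12, 0.62 and 0.74 in NrasG12D/G12D. All 6 mutant samples lay above both wild-type samples, and NrasG12D/+ replicates 1 and 2 lay highest, with NrasG12D/+ replicate 3 below NrasG12D/G12D replicate 1. The change for NrasG12D/+ was 2.80 with a standard error of 0.879 (unadjusted p 0.0112, adjusted p 0.814), and for NrasG12D/G12D 1.0 with the same standard error (adjusted p 0.770). Between the mutant genotypes it was -1.80 with a standard error of 0.786 (unadjusted p 0.0484, adjusted p 0.803). Within slide 1 the heterozygous change was 3.44, and within slide 2 the difference between the mutant genotypes was -0.53. Leaving out any array kept the heterozygous change between 2.45 and 3.44. The files place the probe at chr7:12211439-12211497 and name no build. Fen1, the flap nuclease of the same step, was above background on 2 arrays and changed by -0.41, 0.64 and 1.04.

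In chromatin assembly, Chaf1b, the middle subunit of the histone chaperone CAF-1, was above background on all 8 arrays. Its levels were -0.77 and -1.85 in Nras+/+, -1.33, 0.51 and 0.53 in NrasG12D/+ and -0.56, 0.42 and 1.0 in NrasG12D/G12D. The homozygous samples all lay above the wild-type ones, and NrasG12D/+ replicate 1 lay among the latter. The change was 1.60 with a standard error of 0.886 for NrasG12D/G12D (adjusted p 0.726) and 1.22 for NrasG12D/+ (adjusted p 0.814). Uhrf1, which carries DNA methylation through replication, had levels of 0.51 and -2.41 in Nras+/+, -2.35, -3.56 and -0.88 in NrasG12D/+ and -0.55, -4.16 and -6.05 in NrasG12D/G12D. On NrasG12D/G12D replicates 2 and 3 it was not above background. Its change of -2.63 for NrasG12D/G12D against Nras+/+ had a standard error of 1.61 (adjusted p 0.729), with overlapping samples, and was -1.17 without Nras+/+ replicate 1. A second Uhrf1 probe was above background on no array.

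The homozygous values moved when the slide entered the fit as a fixed block. With the slide as a fixed block, which ties NrasG12D/G12D to Nras+/+ only through the NrasG12D/+ arrays, the changes were -5.78 for Mcm4, -4.03 for Pcna, -3.08 for E2f1, -4.71 for Uhrf1, 2.91 for Lig1, 1.86 for Rfc2 and 0.65 for Chaf1b. These kept their direction, as did 17 of the 23 genes, and Rpa2 moved from -1.49 to -5.48. The other 6 turned: Mcm5 from -1.22 to 2.62, Tyms from -1.25 to 2.45, Ccne1 from -0.21 to 1.24, Tk1 from -0.43 to 0.19, Fen1 from 0.64 to -0.41 and Mcm3 from 0.31 to -0.0088. With that block, 9 of the 23 genes turned between the mutant genotypes and 1 in NrasG12D/+ against Nras+/+. In the fixed block, the slide difference is set by NrasG12D/+ replicate 3 against replicates 1 and 2, so differences among these replicates enter it. Its changes for NrasG12D/+ were those without replicate 3, such as -3.78 for Mcm4. With the slide as a random block, where the correlation within slides was -0.0013, Pcna stayed at -2.85 for NrasG12D/G12D. Slide and genotype cannot be fully told apart.

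Arrays that stood alone were common among these genes. In 9 of the 23 (39.1%) the highest array lay more than 2 log2 units above the next, against 15.4% of the 14707 genes with a value on every array; the gap of 2 was chosen after the values were seen. The gaps were 9.42 for Mcm5, 5.33 for Cdc7, 4.13 for Mcm7, 3.59 for Orc6l, 3.30 for Mcm4, 3.14 for Tyms, 2.77 for Pcna, and 2.66 for both Mcm6 and Rfc2. For Cdc7, the tested probe was chosen as the brightest through that same high value. NrasG12D/+ replicate 1 held the top value of Mcm5 and Mcm7, and replicate 2 that of Orc6l, Tyms and Mcm6. On NrasG12D/+ replicate 2 the summed level of the 10 later cell cycle markers was also highest, at 14.1 times the 75th percentile, against 2.21 to 4.91 on the other 7 arrays, with Ccnb1, Cdc2a, Aurkb and Bub1 above background on no array. Its part in the values of Orc6l, Tyms and Mcm6 was not tested. In 2 genes, Rpa2 and Rfc2, the lowest array lay more than 2 below the next (8.70%, against 1.77% of all genes).

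Further genes of the pathway also went in both directions. A list of 62 other replication and G1/S genes, among them the remaining origin recognition and polymerase subunits, had 27 members tested. For NrasG12D/+ against Nras+/+, 13 had a higher and 14 a lower mean, with 19 of the 27 above the median of all genes, from -1.68 for Dut, which clears dUTP, to 3.15 for the deoxycytidine kinase Dck. For NrasG12D/G12D against Nras+/+, 16 were higher and 11 lower, against 35.6% of all genes higher, with 18 of the 27 above the median of all genes, from -2.49 for the RNase H2 subunit Rnaseh2a to 2.27 for the polymerase epsilon subunit Pole4. Between the mutant genotypes, 13 were higher and 14 lower, with 15 of the 27 above that median, from -3.30 for Orc3l to 1.87 for Pole4. None passed the adjusted threshold. The E2F letters stood in the windows of 34.8% of the 46 matched genes of this list.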

How the data were processed

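Per the file headers, the scanner files come from Agilent Feature Extraction 10.5.1.1, and the processed signal is an intensity after subtraction of background and spatial detrending, array by array. The deposited flags, coded 0 or 1, mark spots well above background, outliers and saturation. The authors' deposited value table holds a ratio, each signal divided by its array's median (largest relative deviation 1.7e-06). Outlier spots, 120 to 464 on an array, were dropped, and no spot was saturated. For 31.2% to 47.1% of the non-control spots of an array the software gave a surrogate signal, so low levels not above background are no measured amounts. Spots of a probe were averaged as log2 signal, then scaled to each array's 75th percentile over the 6579 probes above background on all 8 arrays. Probes above background on at least 2 arrays were kept, the brightest per gene name, which gave 15061 genes. The test was limma 3.58.1 (lmFit, eBayes, 1 spread for the 3 groups) in R 4.3.3, with Benjamini-Hochberg adjustment at 0.05. The prior SD was 1.05 with 3.86 degrees of freedom beside 5 residual ones. Precision is limited by the number of arrays, with a median standard error of 0.963, 0.966 and 0.865 (log2) over the genes. For the fold values of Mcm10 and Pcna, arrays of the dimmer group enter at the array's lowest signal above background (the detection limit). Where the probe's signal is higher, it is kept. Named were the genes above background on all 8 arrays, the 3 highest and 3 lowest changes per comparison, and genes above background on all arrays of 1 genotype and none of another. Further passing probes are given where they disagree. Mcm6 and Cdt1 meet none of these rules and are given in full. Their samples did not overlap with Nras+/+, for NrasG12D/+ and NrasG12D/G12D respectively. Other genes are given by group. The genes and lists were chosen with earlier results of these data known. Alternatives covered scaling, background, filter, probe choice, slide, replicate number, array weights and left-out arrays. Some marker genes are not reported here.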

Additional observations from a re-analysis of the deposited data

How the results depend on the processing

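No replication gene passed an adjusted p under 0.05 in any of the 23 other settings. Over all genes, 0 passed with limma in each comparison (718, 980 and 895 at an unadjusted p under 0.05). For NrasG12D/+ against Nras+/+, 1 gene passed with quantile normalization, the 75th percentile over all probes, the authors' deposited values, no filter, the mean of all passing probes or array weights; for NrasG12D/G12D against Nras+/+, 1 passed with quantile normalization, no filter, the mean of probes, the slide as a fixed block, array weights or only the 2 groups; between the mutants, 4 passed with the slide as a fixed block. Leaving out 1 array gave 0 to 10, 0 to 9 and 0 to 2 genes, the most without Nras+/+ replicate 2 (10 and 9) and NrasG12D/+ replicate 2 (2). With replicate number as a block, counts stayed at 0, and the median for NrasG12D/G12D against Nras+/+ was -0.45. Same-numbered samples correlated at -0.09 to 0.07 after group means were removed. With 2 or 3 arrays a group, such values cannot decide whether the numbers pair the samples.

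The median change of the replication genes moved with the scaling, the filter, the probe choice, the slide block and the arrays left out. For NrasG12D/+ it was 0.46 scaled to the median, -0.40 with normexp, -1.04 for probes above background on all 8 arrays (7 genes) and -0.38 with no filter. For NrasG12D/G12D against Nras+/+ it was 0.22 with quantile normalization, 0.090 scaled to the median, 0.28 with the 75th percentile over all probes, 0.42 with the deposited values, -0.60 for probes above background on all 8 arrays, -0.60 with the mean of probes and 0.18 with the slide as a fixed block. Between the mutants it was 0.25, 0.19, 0.13, 0.32 and 0.092 with quantile normalization, the 75th percentile over all probes, normexp, the deposited values and no filter. Leaving out 1 array gave -0.11 to 0.41, -0.51 to 0.21 and -0.40 to 0.11. Scaling to the median or to the 75th percentile over all probes shifts all genes of an array alike. The median of all genes therefore moves with these values. As it is not set beside them here, they show no shift particular to the replication genes. The cause of the other moves was not tested.

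Signs that turned, beside those given with the genes, were Tk1 for NrasG12D/+ (-0.064 with normexp), Mcm4 between the mutants (0.080 with array weights, and between -0.85 and 0.71 with 1 array left out, above 0 without NrasG12D/+ replicate 3, at 0.71, and NrasG12D/G12D replicate 1, at 0.12), Rfc5 for NrasG12D/G12D (0.028 with the deposited values, and between -1.42 and 0.21 with 1 array left out, the latter without Nras+/+ replicate 1), Cdc7 between the mutants (-0.080 for probes above background on all 8 arrays, and between -1.47 and 3.26 with 1 array left out, -1.47 without NrasG12D/G12D replicate 3) and Chaf1b between the mutants (-0.25 with the slide as a fixed block or within slide 2, and between -0.23 and 0.81 with 1 array left out, -0.23 without NrasG12D/+ replicate 1). Tk1 for NrasG12D/G12D gave 0.059, 0.20 and 0.19, Mcm4 0.13 and 0.25, Mcm10 -0.083, Orc6l -0.21 and Tyms 0.36 as above. The cause of these turns was not tested: Tk1, Mcm4, Rfc5 and Chaf1b were above background on all 8 arrays, Mcm10 and Tyms on 4 and Orc6l on 2.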
